A study of Homo sapiens with 22 samples.

Results

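The histone gene clusters of chromosome 6 were examined as targets of transposon insertion. The genes are the 53 protein-coding genes of GENCODE version 44 whose symbol starts with H1-, H2A, H2B, H3C or H4C and that lie between 25900000 and 28000000 on chromosome 6 of hg38, of 20033 protein-coding genes on chromosomes 1 to 22, X and Y. They comprise 6 genes for the linker histone H1, 11 for H2A, 14 for H2B, 10 for H3 and 12 for H4. All libraries came from K562, a human leukemia cell line, electroporated with the donor plasmid Barcoded-PBase-SRT-Puro and a helper plasmid, and then selected in puromycin. The helper was hyPBase, a hyperactive PBase transposase that the labels write WTHYPB, in 10 libraries, and hyPBase-centrip, written WTHYPBcentrip, in 10 others. What centrip stands for is not described in the labels or the text of the study. Another 2 libraries carried labels that contradict each other on the helper and were not used. Transfected cells were plated together in sets, and the labels do not settle whether each library has a culture of its own, so the p-values below measure the spread between libraries, which may be technical.

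PBase carries a transposon from a plasmid into the tetranucleotide TTAA. The self-reporting transposon used here is transcribed into the flanking genome, and each insertion is read from that RNA with its position, its orientation and the barcode of its donor. Histones H2A, H2B, H3 and H4 form the core of the nucleosome and H1 binds the linker DNA. Their replication-dependent genes are short, mostly without introns, are transcribed in S phase into RNAs that end in a stem-loop in place of a poly(A) tail, and lie in clusters on chromosome 6 that contain several copies of each gene.

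The sites that held the most insertions are shown first, because a small number of TTAA sites carried much of the signal. These are the 4 TTAA sites with the most insertions within 5 kb of a histone gene, as 30 bases of the plus strand of hg38 with the TTAA in capitals.

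chr6:26206122-26206125: agatgtggtttgtTTAAagaaggatccagc

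chr6:26202202-26202205: tatgaactcctttTTAAggagggagtcatg

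chr6:26202104-26202107: cacccatgcaagtTTAAagactgagtaatg

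chr6:26057191-26057194: aattgggctctttTTAAagagctctgaggt

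The first site lies 1512 bp downstream of the start of H4C5, a histone H4 gene, in introns of 2 long gene models of undetermined type. It held 694 insertions over the 20 libraries, between 28 and 40 in each library with a median of 34.5. The third site, at -2506 bp from the same start, held 611 insertions, between 22 and 38 in each library. The second site, at -2408 bp, held 636 insertions and overlaps an exon of a processed pseudogene. Its 32-base flanks occur 15 and 4 times in hg38, so reads there could be placed less surely, whereas both flanks of the other 3 sites occur once. The fourth site is intergenic, at -721 bp from the start of the linker histone gene H1-2, and held 607 insertions, between 20 and 38 per library. Each site was hit in all 20 libraries. A library distinguishes at most 52 insertions at a TTAA, from 26 barcodes and 2 orientations. The fullest site of these windows reached 41 in a library, or 78.8% of that limit, so counts at the fullest sites have little room to rise.

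A pair of promoters shows how unevenly single sites near the same kind of gene were used. Of the 48 histone genes matched in the RefSeq promoter table (GRCh38.p14), H2AC4 had the most insertions in the 250 bases before its start. The promoter of H2AC16, another H2A gene, is given beside it as the H2A promoter with a TTAA and the fewest insertions among those that overlap no transcript of a neighboring gene. H2AC11 had fewer, with 1 insertion, but its promoter runs into H2BC11. Both sequences read in the direction of the gene, with TTAA in capitals.

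H2AC4, chr6:26033619-26033868, minus strand: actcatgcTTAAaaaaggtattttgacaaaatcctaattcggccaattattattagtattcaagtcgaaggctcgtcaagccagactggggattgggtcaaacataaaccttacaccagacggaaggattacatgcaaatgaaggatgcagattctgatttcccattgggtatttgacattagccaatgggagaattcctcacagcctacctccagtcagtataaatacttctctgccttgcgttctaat

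H2AC16, chr6:27865067-27865316, plus strand: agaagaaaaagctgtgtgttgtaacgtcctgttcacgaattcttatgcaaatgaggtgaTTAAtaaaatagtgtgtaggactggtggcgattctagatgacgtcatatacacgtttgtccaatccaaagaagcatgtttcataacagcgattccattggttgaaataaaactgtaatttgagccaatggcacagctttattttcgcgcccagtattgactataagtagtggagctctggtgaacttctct

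Each promoter contains 1 TTAA. The TTAA of H2AC4 held 355 insertions, between 11 and 25 in each library with a median of 18. The TTAA of H2AC16 held 14 insertions in 13 libraries, with 0 to 2 per library. The promoter of H2BC3, an H2B gene, also contains 1 TTAA and held 0 insertions in the 20 libraries, and it was the single promoter of the 41 with a TTAA that had none. In all, the 48 promoters contained 71 TTAA sites and 2227 insertions.

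The histone genes lay in chromatin that was hit far more often than the genome as a whole. For every gene a window of the gene body and 5 kb on each side was taken, and its insertions per TTAA site were divided by the insertions per TTAA site of the same library over chromosomes 1 to 22, X and Y. This relative density is 1 at the genome mean. In each library the median over the 53 windows was between 13.94 and 16.004, with a mean of 14.8 ± 0.599 (SD, n = 20). On the pooled libraries the median was 14.7 for the histone genes, 5.85 for the 19 other protein-coding genes of the same span and 1.41 for all protein-coding genes. All 53 histone genes lay above the genome mean, 47 above 5 times that mean and 40 above 10 times, and 46 exceeded the 95th percentile of all genes. Windows of neighboring genes overlap and share insertions, so the 53 values are not independent of each other, and these counts are descriptions with no test.

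**Figure D1:**
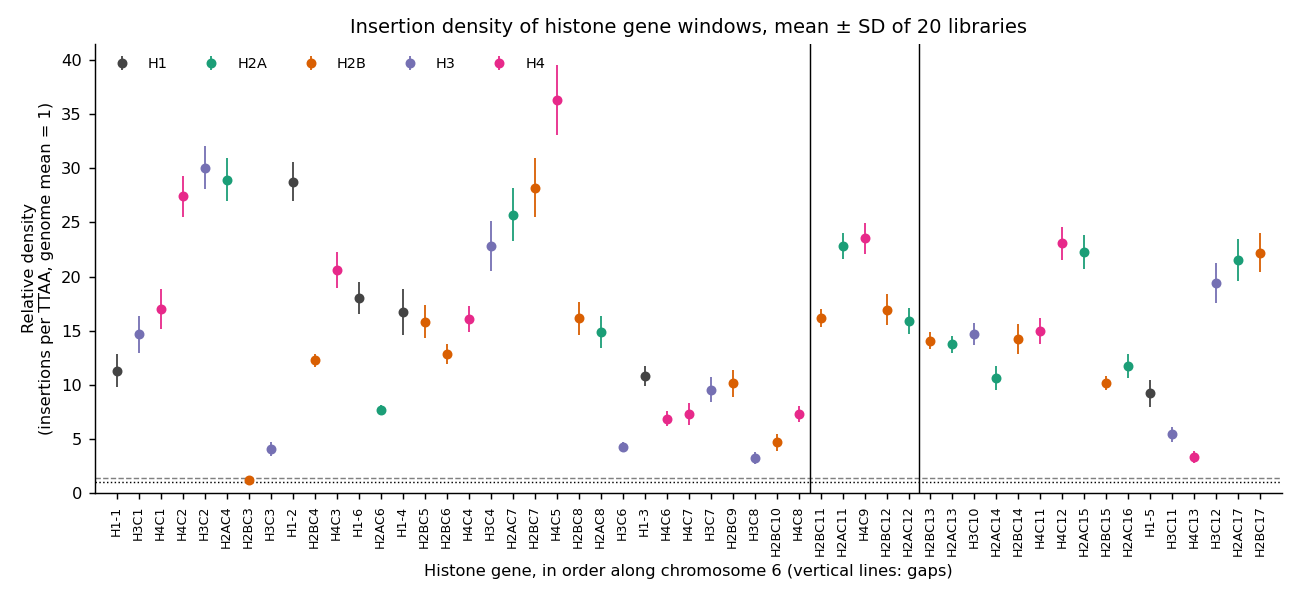
Relative density of the window of each histone gene (insertions per TTAA site, genome mean = 1), genes in order along chromosome 6, as points with the mean and SD of 20 libraries, colored by family. The dotted line is the genome mean, the dashed line the median of all protein-coding genes (1.41) and the vertical lines the gaps between sub-clusters. H4C5 is highest at 36.3 and H2BC3 lowest at 1.17, with dense and sparse genes side by side.

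Merged, the windows formed 8 stretches of 362828 bp with 2475 TTAA sites. Of these sites 89.7% were hit at least once, against 47.7% of the TTAA sites of the genome. They held 86912 insertions, between 2640 and 5881 in each library with a median of 4396.5. Only 195 sites, or 7.88%, held 50% of these insertions. When barcodes were collapsed to 1 insertion per position and orientation in each library, 37.3% of the insertions in the windows remained, against 69.1% over the genome. The median relative density was then 8.01 ± 0.801, and with each position counted once per library 6.50 ± 0.749 (SD, n = 20). The size of the excess thus depended on how repeated hits to a site were counted, and its direction did not under any of the counting rules tried.

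The linker histone genes spanned a wide range. H1-2, which encodes a somatic H1 of dividing cells, had the highest relative density of the 6, between 25.96 and 33.6 in the 20 libraries with a median of 28.6. H1-6, the testis-specific H1, followed at 15.8 to 21.8 with a median of 17.8. H1-4 lay between 13.9 and 22.03 with a median of 16.5. H1-1 (8.32 to 14.1, median 11.1), H1-3 (9.04 to 12.1, median 10.8) and H1-5 (6.79 to 11.7, median 9.07) were lower, and their ranges overlapped. Within libraries H1-1 was denser than H1-3 in 13 of 20 and H1-3 denser than H1-5 in 18. H1-6 is an H1 gene used in the germ line, and its window lies inside the long gene model of H2BC4 and beside the H4 gene H4C3, whose windows share its insertions.

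Among the core histone genes the families differed little in their medians and much within each family. The pooled medians were 15.8 for H2A, 14.1 for H2B, 12.1 for H3 and 16.4 for H4, against 13.9 for H1. The gene with the highest density was H4C5 (ENSG00000276966.3, chr6:26204610-26205021), with 32.3 to 46.9 per library and a median of 35.5. H3C2, an H3 gene, was next, with 26.7 to 34.2 and a median of 29.8. H2AC4 had 25.8 to 33.1 with a median of 28.7, and H2BC7, an H2B gene next to H4C5, had 25.1 to 36.5 with a median of 27.4. Compared within libraries, H4C5 was denser than each of the other 4 highest genes in 20 of 20. H3C2 was denser than H2AC4 in 19 of 20, than H2BC7 in 16 and than H1-2 in 14. H2AC4 exceeded H1-2 in 8 and H2BC7 in 13 of 20, so the order of these last 3 changed from library to library.

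The 5 lowest windows belonged to 3 H3 genes, 1 H4 gene and 1 H2B gene. H2BC3 (ENSG00000276410.4, chr6:26043227-26043713) had a relative density of 0.40 to 1.93 per library with a median of 1.13, close to the genome mean. H3C8 had 2.47 to 4.32 (median 3.16), H4C13 2.54 to 4.55 (median 3.15), H3C3 3.10 to 5.70 (median 3.87) and H3C6 3.27 to 4.99 (median 4.25). H2BC3 lay below the other 4 in all libraries, and the ranges of the other 4 overlapped. Within libraries H3C6 was denser than H3C3 in 14 of 20 and H4C13 denser than H3C8 in 11.

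H2BC3 sits between some of the densest genes of the cluster. Its window held 207 insertions at 67 TTAA sites, 55.2% of them hit, and 97.01% of these sites had 32-base flanks on both sides that occur once in hg38. On its downstream side, toward H2AC4, the 5 kb flank had a pooled relative density of 0.728. On its upstream side the value was 1.75. H3C3, the next gene, had 0.774 in the 5 kb before its start, which faces H2BC3, and 6.30 in the 5 kb beyond its end, which faces H1-2. The sparse stretch therefore covers H2BC3 and the start of H3C3, with H2AC4 (pooled density 28.8) on one side and H1-2 (28.7) on the other.

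Within the genes themselves TTAA sites were rare. The 44 histone genes shorter than 1300 bp had 59 TTAA sites in their bodies, or 2.58 per kb, against 6.82 per kb in the merged windows and 6.22 in the genome, and 16 of them had none. The median GC content was 57.2% for these bodies and 42.6% for the windows. The few sites in the bodies held 3771 insertions, or 2.69% of those counted in their windows, so the window values come mainly from the flanks. For the 37 genes with a TTAA in the body, the median relative density of the bodies alone was 11.7 ± 2.19 (SD over 20 libraries). Pooled over the sites of the 44 short bodies it was 23.6.

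The promoters carried the elements known from replication-dependent histone genes, which bind general and histone-specific activators. In the 250 bases before the start, on either strand, TATAAA was found in 31 of the 48 histone promoters (64.6%), against 9.23% of 15345 protein-coding promoters. CCAAT was found in 41 (85.4%, against 34.8%). All H1, H2A, H2B and H3 promoters contained it, and 3 of the 10 H4 promoters did. The octamer ATTTGCAT, the element that the factor OCT1 binds in H2B promoters, was found in 11 of 14 H2B and 8 of 10 H2A promoters, in 1 of 8 H3 promoters and in no H1 or H4 promoter, against 1.66% of all promoters. Several H2A and H2B genes stand head to head and share a promoter, so these counts are not independent. TTAA itself was present in 41 of the 48 (85.4%), against 37.3% of all promoters. The promoters of H2AC4 and H2BC3 contain each of these 4 motifs and had 355 and 0 insertions.

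The short stretches between head-to-head genes held few TTAA sites and few insertions. For scale, a TTAA site of the genome held 2.71 insertions on average over the 20 libraries. Of 11 pairs of genes on opposite strands whose starts lie within 1 kb of each other, 10 had starts 169 to 318 bp apart and contained 0 to 3 TTAA sites. H2BC11 and H2AC11, an H2B and H2A pair with 247 bp between the starts, had 1 TTAA and 1 insertion, while the joint window of both genes had a pooled relative density of 17.7. H2BC12 and H2AC12 likewise had 1 TTAA and 1 insertion within 250 bp. H2AC15 and H2BC15 had 3 TTAA sites and 29 insertions. H2BC17 is counted in 2 pairs, with H3C12 and with H2AC17, which share the same 2 TTAA sites and 19 insertions. The H3C7 and H2BC9 pair, with 978 bp between the starts, had 10 sites and 145 insertions.

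The density of the histone genes was high at all distances from their starts. In steps of 500 bp from 5 kb upstream to 5 kb downstream, the relative density over the 53 genes was lowest from 3500 bp downstream, at 12.4 ± 0.724, and highest in the first 500 bp after the start, at 22.996 ± 2.70 (SD, n = 20). Over all protein-coding genes the pooled value rose from 2.07 in the most distant step downstream to 6.44 in the 500 bp before the start. The highest step of the histone genes exceeded their lowest by more than the spread between libraries. That highest step rests on 82 TTAA sites summed over the genes, against 142 to 230 in the other steps. Windows of neighboring histone genes overlap, so a site near 1 start is also counted farther from another, and the steps are not independent.

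**Figure D2:**
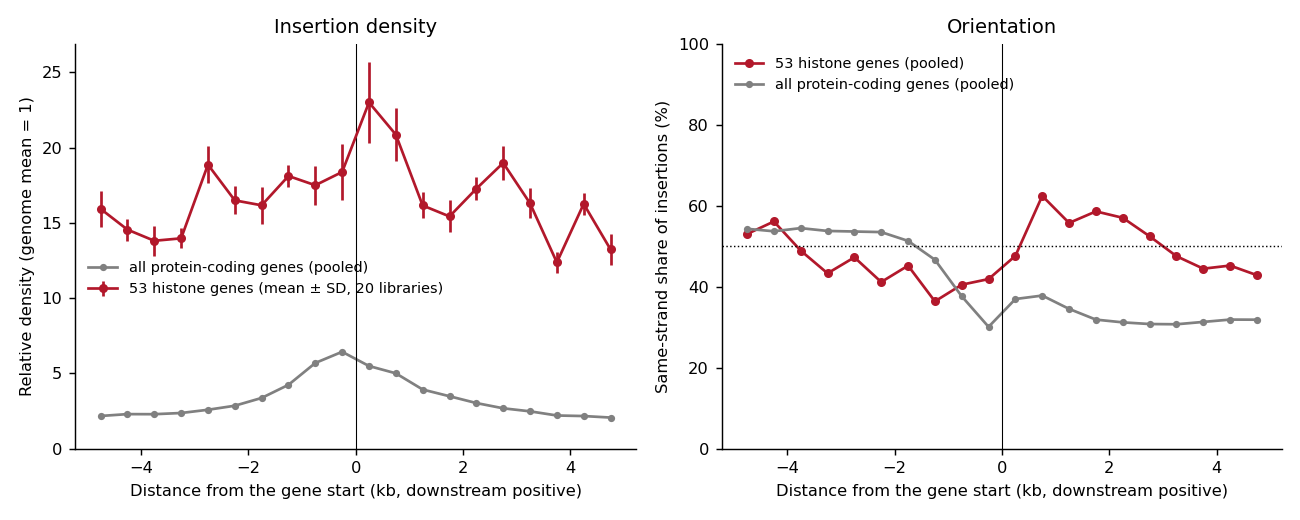
Left, relative density of insertions (genome mean = 1) in 500 bp steps by distance from the gene start, for the 53 histone genes (mean and SD of 20 libraries) and for all protein-coding genes (pooled). Right, the share of insertions in the orientation of the gene (same-strand share, pooled, dotted line at 50%). The histone genes stay above 12 on the left at all distances, and on the right they rise to 62.5% from 500 bp after the start, where all genes are at 37.9%.

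The genes form 3 sub-clusters, taken as runs of histone genes less than 100 kb apart, with 2 gaps between them. Sub-cluster 1 (chr6:26017032-26285638) holds 32 of the genes, sub-cluster 2 (chr6:27125897-27147562) holds 5 and sub-cluster 3 (chr6:27807479-27893891) holds 16. Sub-cluster 2 was the densest, with a relative density of 19.1 to 23.1 over the 20 libraries. Sub-cluster 1 had 11.4 to 13.5 and sub-cluster 3 had 10.2 to 11.2. These values cover the whole spans, with the DNA between the genes. The pooled medians over the gene windows were closer, 14.6, 16.8 and 14.1 in sub-clusters 1, 2 and 3. Gap 1 had 4.06 to 4.67 and gap 2 had 5.37 to 6.23. The sub-clusters and the gaps did not overlap in any library, and both gaps lay above the genome mean.

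Insertions per TTAA over the sub-clusters were divided by those over the gaps in each library. With hyPBase this ratio was 2.53 to 2.65 and averaged 2.58 ± 0.0326 (SD, n = 10, two-sided exact sign-flip permutation test on log2 ratios, p = 0.00195). With hyPBase-centrip it was 2.35 to 2.55 and averaged 2.44 ± 0.0674 (SD, n = 10, same exact test, p = 0.00195). This p is the smallest that 10 libraries allow, and the ratio was above 1 in 20 of 20 libraries. The ratio was lower with hyPBase-centrip by 0.135 (two-sided permutation test on libraries, p = 1e-04). The gaps include the 20 kb stretch near 27.59 Mb in gap 2, which an earlier comparison of the helpers on these libraries had pointed to. The permutation p is therefore not independent of that earlier result. Without the stretch the averages were 2.57 with hyPBase and 2.45 with hyPBase-centrip, and their difference was not tested.

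**Figure D3:**
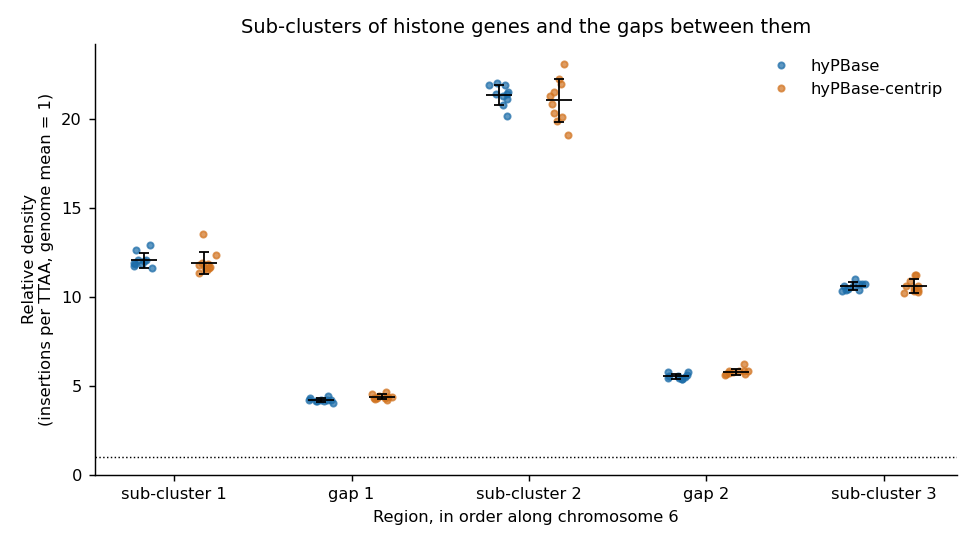
Relative density (insertions per TTAA site, genome mean = 1) of the 3 sub-clusters and the 2 gaps in order along chromosome 6. Points are libraries, 10 per helper, bars the mean and SD, and the dotted line the genome mean. Both gaps lie between 4.06 and 6.23, below all values of the sub-clusters.

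Part of gap 1 could barely be measured. Of the 105 tiles of 20 kb in the span, 11 had less than 0.5 times the genome mean, and all lay between 26680001 and 26920000 in gap 1. That stretch of 240 kb has 1550 TTAA sites and held 1400 insertions, a relative density of 0.333, and 3 of its tiles had none. In it 4.0% of the TTAA sites had unique 32-base flanks on both sides, against 96.5% in the merged histone windows, and over such sites alone its relative density was 1.65. With only such sites counted, gap 1 had a relative density of 7.41 and gap 2 of 5.75, and the sub-cluster to gap ratio was 2.01 ± 0.0257 for hyPBase and 1.90 ± 0.0479 for hyPBase-centrip (SD over 10 libraries). The order of the 2 gaps was then reversed, whereas the sub-clusters stayed above the gaps.

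The other genes of the span ranged widely in density and did not mark all dense parts of the gaps. The densest 20 kb tiles of gap 1 (chr6:26320001-26340000, 17.6) and gap 2 (chr6:27540001-27560000, 18.1) overlapped none of them. The unnamed gene model ENSG00000282988, which overlaps the histone genes H3C4 and H2AC7, had the highest pooled density of the 19, at 22.1, and shares its insertions with them. In gap 1, ABT1, which encodes an activator of basal transcription, reached 16.5. HMGN4, a nucleosome-binding protein gene, had 12.4 and the butyrophilin gene BTN3A2 12.1, against a pooled median of 14.7 over the histone windows. The olfactory receptor gene OR2B6, beyond sub-cluster 3, had the lowest value, 1.74. These values were chosen as the extremes and as dense genes after the values were seen and carry no test.

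The stretch near 27.59 Mb lies inside gap 2, away from any protein-coding gene. The nearest are the zinc finger genes ZNF184, 116882 bp away, and ZNF391, 186092 bp away, and the histone gene H2BC13 at 217479 bp. It was named because an earlier comparison of the helpers on these libraries pointed to it, so its values are a description with no test. Over 10 kb on each side it had a relative density of 3.74 to 4.89 with hyPBase (median 4.27) and of 4.88 to 6.67 with hyPBase-centrip (median 5.70). The helper means were 4.33 ± 0.340 and 5.69 ± 0.608 (SD, n = 10 each), a ratio of 1.31. The ranges of the helpers touched at their ends only. With barcodes collapsed the ratio was 1.15.

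The most used TTAA of the stretch and a second one in the same 1 kb step, chosen after their values were seen, are shown as 30 bases of the plus strand of hg38 with TTAA in capitals.

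chr6:27592929-27592932: atctccaagtaacTTAAacatctcctaaca

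chr6:27592707-27592710: aagcaccaggcagTTAAaacagagtttact

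The first held 153 insertions in 20 of 20 libraries, 92.8% of them on the plus strand, at 2.82 ± 1.02 CPM (insertions scaled by library total) for hyPBase and 3.23 ± 0.918 CPM for hyPBase-centrip (SD over 10 libraries). The second held 75 insertions in 19 libraries, at 0.910 ± 0.952 and 1.97 ± 0.827 CPM. At the fullest site the difference between the helpers was smaller than the SD, and at the second site it was little larger than the SD. Over the whole stretch 63.2% of insertions were on the plus strand. By 1 kb steps the highest was the one that contains both sites, with 4.65 ± 2.14 CPM with hyPBase and 8.04 ± 1.61 with hyPBase-centrip.

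**Figure D4:**
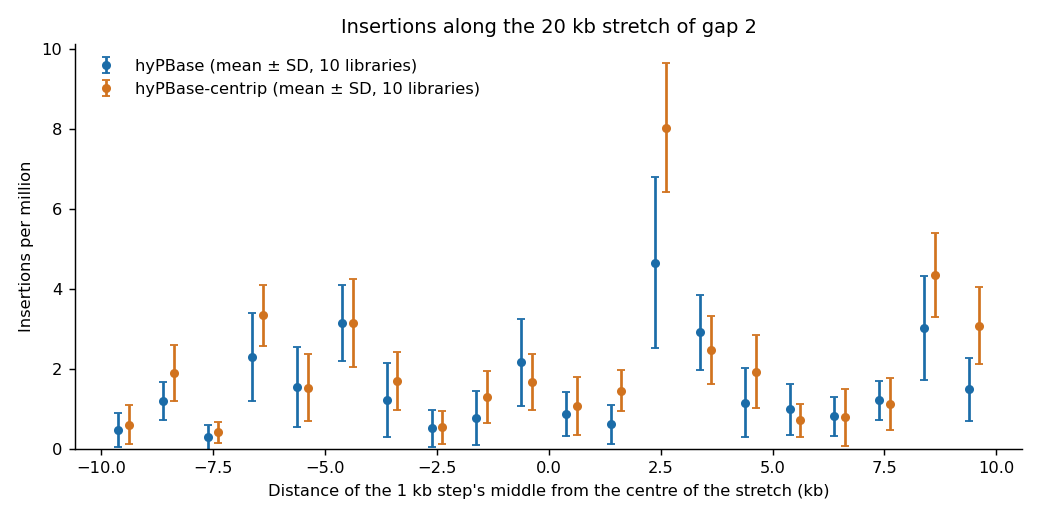
Insertions (CPM) in 1 kb steps along the 20 kb stretch near 27.59 Mb in gap 2, by distance of the middle of the step from the centre of the stretch, as mean and SD of 10 libraries per helper. The step 2.5 kb to the right of the centre is highest, at 4.65 with hyPBase and 8.04 with hyPBase-centrip.

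The log2 differences between the helpers in the histone windows ran from -0.18 to 0.18. Insertions per window were compared with edgeR over the 17746 protein-coding genes with at least 100 insertions in the 20 libraries, and positive values mean more with hyPBase-centrip. H2BC12 (ENSG00000197903.8, chr6:27146361-27146855), an H2B gene of sub-cluster 2, was the single histone gene called, out of 53, and it was lower. Over all genes 0.603% were called higher and 1.39% lower. Of the 53 genes 30 had negative and 23 positive values. An unadjusted p below 0.05 was found for 14 of the 53 and for 2518 of all 17746 genes tested. Their median log2 difference was -0.02, against 0.00 over all genes tested.

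H2BC12 had a relative density of 16.7 to 19.3 with hyPBase (median 17.6) and of 14.6 to 18.2 with hyPBase-centrip (median 16.2), and the ranges overlapped. Its log2 difference was -0.17 with a standard error of 0.0494 (edgeR adjusted p = 0.0481). The call was lost with at least 2 reads per insertion, barcodes collapsed, flanks of 1 kb, no filter or no TMM scaling (edgeR adjusted p from 0.0530 to 0.913), and was kept by DESeq2 (adjusted p = 0.0481). With flanks of 1 kb H2AC11 alone was called, higher by a log2 difference of 0.40 (edgeR adjusted p = 0.0370). The smallest p among the positive differences belonged to the linker histone gene H1-4, with a log2 difference of 0.11 and a standard error of 0.0558 (edgeR adjusted p = 0.341). Of the other genes of the span, the iron-regulating gene HFE was called lower, by 0.16 on the log2 scale (edgeR adjusted p = 0.0405). Its window lies within that of the H2B gene H2BC4, which had a log2 difference of -0.08 (edgeR adjusted p = 0.198).

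In 10 kb bins of the span, without those that overlap the stretch near 27.59 Mb, 2 of 183 were called higher with hyPBase-centrip and 0 lower (edgeR), against 0.107% higher and 0.366% lower of the 125619 bins tested over the genome. At an unadjusted p below 0.05 there were 31 of the 183, and 12331 of the 125619 over the genome. The 2 bins lie in the gaps. The one at chr6:27730001-27740000 in gap 2 had 3.97 ± 1.40 CPM for hyPBase and 6.67 ± 1.94 CPM for hyPBase-centrip (SD over 10 libraries), a log2 difference of 0.68 (edgeR adjusted p = 0.0283). The one at chr6:26740001-26750000 had 11.3 ± 1.02 and 15.5 ± 2.60, a log2 difference of 0.42 (edgeR adjusted p = 0.0414), and lies in the stretch of gap 1 with few unique flanks. No bin was called of the 27, 2 and 8 tested in sub-clusters 1, 2 and 3. DESeq2 called 2 bins of the span higher and 1 lower, and with barcodes collapsed edgeR called 0, with 11 at an unadjusted p below 0.05.

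An insertion was counted as same-strand when its orientation was that of the gene. Insertions in the windows of all protein-coding genes were mostly on the opposite strand, and those of the histone windows were near balance. Summed over the histone windows the same-strand share was 47.9% to 49.0% with hyPBase (48.4% ± 0.380) and 47.1% to 48.6% with hyPBase-centrip (48.3% ± 0.435, SD, n = 10 each). Over all genes it was 36.0% ± 0.282 and 36.8% ± 0.200. Histone genes on both strands lie close together, and an insertion that is same-strand for one is opposite for its neighbor, so windows where protein-coding genes of 1 strand only overlap were also taken. There the histone share was 46.0% ± 0.845 and 45.9% ± 1.43, against 33.9% ± 0.322 and 34.9% ± 0.213 over all genes.

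Gene by gene, same-strand and opposite-strand insertions were compared with edgeR within libraries. The same-strand count was higher for 21 of the 53 histone genes and lower for 25, against 13.2% higher and 70.5% lower of 17746 genes tested. The median log2 ratio was -0.01 for the histone genes and -0.67 for all genes. Most genes of the genome pass this test, so passing it sets no histone gene apart, and what differed in these counts was the split by direction.

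**Figure D5:**
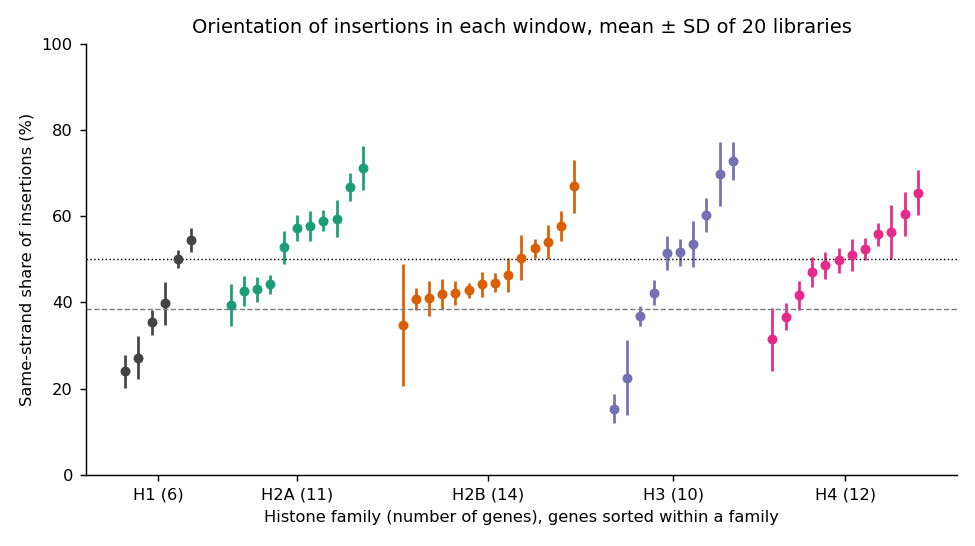
Share of insertions in the orientation of the gene in the window of each histone gene, sorted within each family, as mean and SD of 20 libraries. The dotted line is 50% and the dashed line the median of all protein-coding genes tested (38.5%). H3 genes run from 15.4% (H3C11) to 72.8% (H3C6).

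Within families the shares ranged widely. Of the H3 genes, H3C11 had 8.33% to 21.4% per library, with a mean of 15.4% ± 3.26, and H3C6 had 64.8% to 81.4%, with a mean of 72.8% ± 4.41 (SD, n = 20 each), so the 2 did not overlap. Of the H1 genes, H1-3 was lowest, at 18.1% to 30.3% (24.03% ± 3.86), and H1-6 highest, at 50.3% to 59.3% (54.5% ± 2.75). H1-3 also had the smallest p of all histone genes on the opposite-strand side, with a log2 ratio of -1.66 (edgeR adjusted p = 5.47e-86), and lower same-strand counts in 20 of 20 libraries. H2AC6, an H2A gene with a model of 14972 bp, had the smallest p on the same-strand side, at 66.8% ± 3.34 with a log2 ratio of 1.00 (edgeR adjusted p = 1.62e-65). With windows of 1 strand only, its value turned to -0.41 (edgeR adjusted p = 0.000632), so its direction depended on the window used.

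In the other families the extremes were H2AC14 (39.4% ± 4.88) and H2AC16 (71.2% ± 5.03) for H2A, H2BC3 (34.7% ± 14.1) and H2BC10 (67.0% ± 6.14) for H2B, and H4C13 (31.4% ± 7.36) and H4C6 (65.4% ± 5.19) for H4. The wide error of H2BC3 comes with its 207 insertions. The direction of 2 of these genes changed with the window. For H4C13 the log2 ratio of -1.11 became 0.68 in windows of 1 strand only (edgeR adjusted p = 0.000917), and for H2AC14 that of -0.62 became 0.26 with flanks of 1 kb (edgeR adjusted p = 0.104).

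By distance, the histone genes lay above all genes past the start and below them over much of the upstream side. From 500 to 999 bp downstream of the start 62.5% of the insertions over the 53 genes were same-strand, against 37.9% over all protein-coding genes. From 1 to 2.5 kb downstream the share was 55.8% to 58.6%, where all genes had 31.2% to 34.6%. In the 500 bp before the start it was 41.9% against 30.1%. In the 5 steps from -3500 to -1001 bp it was 36.4% to 47.3%, where all genes had 46.7% to 53.8%, and the histone genes were lower in each step. Several histone genes stand head to head. An insertion that is downstream and same-strand for one of them is upstream and opposite-strand for its partner, and is counted for both. The downstream and upstream shares are therefore not independent of each other. These shares are pooled over libraries and were not tested.

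The flanks of single genes were often unequal. The 5 kb upstream of the start and the 5 kb downstream of the end were compared per TTAA with edgeR, over the 13639 genes with at least 5 TTAA sites in each flank and 100 insertions. The upstream flank was denser for 27 of the 53 histone genes and sparser for 21, against 55.3% and 27.5% of all genes tested. The median log2 ratio was 0.15, against 0.64 over all genes. With flanks of 1 kb the split was 9 denser and 12 sparser of 24 histone genes tested, against 80.3% and 12.6% of 1923 genes, with medians of -0.30 and 2.57.

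The genes with the smallest p in each direction were H3C1, an H3 gene, and H2AC7, an H2A gene. H3C1, the second gene of sub-cluster 1, had a pooled relative density of 0.994 upstream and 26.001 downstream, a log2 ratio of -4.67 with a standard error of 0.0926 and the upstream flank lower in 20 of 20 libraries. H2AC7 had 41.1 upstream and 12.8 downstream, a log2 ratio of 1.68 with a standard error of 0.0413, with the upstream flank higher in 20 of 20. Both flanks of H2AC7 lay far above the genome mean, and of H3C1 the downstream flank alone did. Their p was given as 0 by edgeR because it was below the smallest number that can be written. The upstream flank of H2AC7 contains H2BC7, the H2B gene that faces it, which had 15.3 upstream and 42.5 downstream.

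Histone genes elsewhere in the genome and the genes of histone supply give the setting of these values. The 17 replication-dependent histone genes outside the span had a median relative density of 6.13, from 0.694 to 15.2. They include 2 genes of chromosome 6 outside the span, H2AC1 at 0.881 and H2BC1 at 0.826, named after their values were seen. The 14 replacement histone genes, expressed outside S phase, had a median of 2.51. The 23 genes of histone transcription and pre-mRNA processing had 2.03 and the 12 histone chaperone genes 2.51. The 53 histone genes of the span, without H2AC1 and H2BC1, had 14.7 and all genes 1.41. In the helper comparison the replication-dependent genes elsewhere and the transcription and processing genes had 1 gene each called lower and none higher with hyPBase-centrip, and the chaperones had 0 called by edgeR, with 2 of 12 at an unadjusted p below 0.05. CCNE2, which encodes cyclin E2, a partner of the kinase that turns on histone transcription, had 29.6 ± 3.91 CPM for hyPBase and 23.999 ± 3.03 CPM for hyPBase-centrip (SD over 10 libraries), a log2 difference of -0.31 (edgeR adjusted p = 0.0103). H4C14, an H4 gene of chromosome 1, had 5.76 ± 1.76 and 3.48 ± 1.42 CPM, a log2 difference of -0.69 (edgeR adjusted p = 0.0230).

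The libraries held between 1509672 and 2911515 insertions with hyPBase and between 1638175 and 3596762 with hyPBase-centrip. Insertions in the histone windows were read more often than those of the genome, by a factor of 1.20 ± 0.0364 in reads per insertion for hyPBase and 1.25 ± 0.0497 for hyPBase-centrip (SD over 10 libraries), and above 1 in 20 of 20 libraries. With only insertions of at least 2 reads counted, the median relative density was 16.04 ± 0.782. Replicate 3 of hyPBase-centrip had the fewest insertions of its helper, 1638175. Its sub-clusters had a relative density of 13.6, where the other 9 libraries of that helper had 11.7 to 12.5. Without it the median over the histone windows was 14.7 ± 0.539, and H2BC12 and the H3 gene H3C1 were called lower in place of H2BC12 alone (edgeR adjusted p = 0.0394 and 0.0391). Libraries with consecutive numbers within a helper shared position, orientation and barcode in the histone windows at 0.995 ± 0.0234 of the number expected from independent barcodes (SD, 18 pairs), and the 72 remaining pairs of a helper at 0.969 ± 0.0162. The part of this in the p-values was not tested.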

How the data were processed

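Self-reporting transposon libraries of K562 cells were analysed from the insertion lists that the authors deposited, 1 per library. The authors deposited, in each line, a position, an orientation, a barcode and the count of reads behind it, not normalized, and each line was taken as 1 insertion. The submitters' processing notes name Trimmomatic, BWA, SAMtools and hg38, and reads at repeated sequence can be placed wrongly or lost. Of 22 libraries 20 were used, 10 per helper, grouped by the labels, and 2 whose labels name different helpers were left out. The gene windows, the lists and the stretch near 27.59 Mb were chosen with earlier results of these data known.

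Insertions on chromosomes 1 to 22, X and Y were counted per GENCODE version 44 gene with flanks of 5 kb, and per 10 kb bin. Relative density needs no test. Helper, orientation and flank differences were fitted over all genes with the edgeR 4.0.16 quasi-likelihood test (R 4.3.3, at least 100 insertions, Benjamini-Hochberg adjusted p below 0.05), after a check on simulated data. TMM scaling was used for the helper differences. Orientation and flank differences were scaled by library totals, with library as a block and, for flanks, the number of TTAA sites as offset. DESeq2 1.42.0 was an alternative. Python 3.11.15, numpy 2.4.6, scipy 1.17.1, pandas 2.3.3 and matplotlib 3.10.9 served for the rest. Ratios were tested by exact sign flips within a helper and by 100000 permutations between helpers. Genes were named where they were the 5 highest or lowest in density, the H1 genes, the family extremes in same-strand share, the smallest p in each direction of a test, called between helpers, nearest to the stretch, or the extremes in density of the other genes of the span. Sites and promoters were shown for the most insertions, with a promoter of few insertions as contrast. Alternatives were at least 2 reads, barcodes collapsed, distinct positions, flanks of 1 kb, no filter, no TMM, windows of 1 strand, a replicate block and single helpers. Unique flanks, gap 2 alone and leaving out hyPBase-centrip replicate 3 were chosen after seeing the data. The number of libraries and insertions limits precision, and PCR reads are not independent molecules. A result on 1 gene of the lists is not reported here.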

Additional observations from a re-analysis of the deposited data

Results flagged for a closer look

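In hyPBase-centrip replicate 3 several values lay far from those of the other 9 libraries of that helper. Its relative density was 13.5 in sub-cluster 1, 13.6 over all sub-clusters, 6.23 in gap 2, 5.34 over both gaps and 6.79 over the whole span, the highest in each case. Its windows of H4C5 at 46.9, H2BC7 at 36.5 and H2AC7 at 32.1 were likewise the highest. Its same-strand share over the histone windows was the lowest, at 47.1%, as was its ratio of reads per insertion in the windows to that of the genome, at 1.13. Replicate 3 had 1638175 insertions, the fewest of that helper. The hyPBase libraries with the fewest insertions, replicates 8 and 9, had 1774712 and 1509672. Their sub-cluster densities, both 12.9, were the highest of hyPBase, and their ratios of reads per insertion, 1.16 and 1.13, the lowest. Whether these values follow depth was not tested. In hyPBase-centrip replicate 2 the window of H4C6, an H4 gene, was far below the others, at 4.99. The flagged values are from 11 of 78 sets of 10 values examined, where chance gives about 1 in 20 for a single set. The regions are nested and gene windows overlap, so the sets are not independent. All flags but that of H4C6 are from hyPBase-centrip replicate 3. The number of flags therefore cannot be set against chance.

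The sub-cluster to gap ratio differed between the helpers by -0.135, from 2.58 with hyPBase to 2.44 with hyPBase-centrip (permutation test, p = 1e-04). Without hyPBase-centrip replicate 3 the hyPBase-centrip average was 2.43 ± 0.0598 (SD).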

How the results depend on the processing

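Of the alternatives to the main counts and values, 35 were taken as the same and 16 as moved. Same meant a count within a set factor, or a median density or stretch ratio within 1 SD. For the sub-cluster to gap ratio it meant above 1 with sign-flip p below 0.05. For the named genes, 76 relative densities moved and 49 stayed the same. Their helper differences weakened in 15 alternatives against 35 the same. Their orientation ratios weakened in 3 and reversed in 3, against 73 the same. Of the 53 histone genes, 0 in place of 1 were called between helpers with at least 2 reads per insertion, with barcodes collapsed, with no filter, without TMM scaling and with the replicate block, and 2 without hyPBase-centrip replicate 3. Bins called in the span numbered 0 with barcodes collapsed, 1 with no filter and 5 without TMM, against 2, and 2 with the replicate block. Genes called by orientation fell from 46 to 22 of 30 tested in windows of 1 strand, and by flank from 48 to 21 of 24 tested with flanks of 1 kb, where fewer genes were tested. The median relative density of 14.8 became 16.04 with at least 2 reads, 8.01 with barcodes collapsed, 6.50 with distinct positions and 11.7 in gene bodies alone, and the helper ratio of the stretch near 27.59 Mb fell from 1.31 to 1.15 with barcodes collapsed. In windows of 1 strand the orientation log2 ratio turned to 0.68 for H4C13 and -0.41 for H2AC6, and with flanks of 1 kb to 0.26 for H2AC14. Where no construction shows it, the cause was not tested. Same-numbered libraries of the 2 helpers correlated by -0.019 to 0.033 and 1 of 10 correlated best with its own number, so the block pairs libraries by number only.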
